A study of Mus musculus with 50 samples.

Results

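Methylation of lysine 9 of histone H3 (H3K9) was followed at the level of its enzymes, in single germinal vesicle oocytes of mice with and without a conditional knockout of Zfp36l2. The 7 genes, chosen by name with earlier results of these data known, were Setdb1, Setdb2, Ehmt1, Ehmt2, Suv39h1, Suv39h2 and Prdm2. All 7 were among the 16614 rows of the count table, and all 7 were among the 15029 genes that passed the filter on low counts and were tested. One of them, Ehmt2, rose 6.09-fold in knockout oocytes, from 2.82 ± 1.5 to 17.5 ± 3.83 counts per 1000000 counts of the library (CPM; mean ± SD, n = 4 mice per genotype). The other 6 did not pass the test across all genes.

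The data came from 50 single oocytes: 26 oocytes of 4 floxed mice, labelled F/F-, and 24 oocytes of 4 conditional knockout mice, labelled cKO-Zfp36l2. Every animal was a female of 5 weeks that had received 10 IU of PMSG (a gonadotropin that makes follicles grow) 46 h earlier, and no mouse without floxed alleles was analysed here. The oocytes had been enclosed in cumulus cells, were held in meiotic arrest with 5 µM milrinone while collected, and were freed of these cells and of the zona pellucida. The number of oocytes was 5, 7, 7 and 7 for floxed mice 1 to 4, and 1, 7, 8 and 8 for knockout mice 1 to 4. The sources used here do not name the Cre driver. Oocytes of a mouse share their source, so counts were summed per mouse and the mouse was the replicate.

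H3K9 methylation marks silent chromatin. SETDB1 writes the trimethyl mark, mainly at retroelements and at sites brought to it by TRIM28, and SUV39H1 and SUV39H2 write it at the repeats beside centromeres. EHMT1 (GLP) and EHMT2 (G9a) work as a heterodimer that writes the mono- and dimethyl marks, and SETDB1 and EHMT2 are known to act in growing oocytes. ZFP36L2 is a zinc finger protein that recognises AU-rich elements, with UAUUUAU as their core, in the 3′ untranslated regions (3′UTRs) of mRNAs and brings in the machinery that shortens the poly(A) tail.

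The oocytes held 1746007 to 6233840 counts each (median 4761241 in floxed and 5211210 in knockout oocytes), and the mouse sums 4332108, for the single oocyte of knockout mouse 1, to 44498770. All 3 oocytes under 3000000 counts were floxed, 1 of mouse 1 and 2 of mouse 2. The 13 oocyte markers summed to 5213 to 6436 CPM in floxed and 5266 to 6146 CPM in knockout mice. Of 14 cumulus and granulosa markers, 11 were in the table and summed to 144 to 217 CPM in floxed and 147 to 257 CPM in knockout mice, ranges that overlap. Within this sum Cyp19a1 stood at 60.5 to 101 and 61.9 to 87.7 CPM, and Foxl2 at 0.279 to 1.00 and 0.321 to 0.870 CPM. The theca and stroma markers (4 of 6 in the table) summed to 3.06 to 6.26 and 1.15 to 7.67 CPM, and the blood markers (2 of 5) to 5.16 to 11.7 and 1.85 to 6.09 CPM. The endothelial markers (2 of 3, Pecam1 and Kdr) summed to 92.6 to 179.9 CPM in floxed and 18.7 to 35.7 CPM in knockout mice, without overlap. Nearly all of this sum was Pecam1, at 91.1 to 174.6 CPM in floxed and 18.7 to 35.7 CPM in knockout mice. Kdr stood at 1.02 to 6.31 and 0 to 0.584 CPM. Pecam1 fell by 2.53 on the log2 scale (edgeR adjusted p = 0.000487) and Kdr fell by 3.62 (edgeR adjusted p = 0.0458). Of the oocyte markers 1 was called, Figla, which was higher by 0.70 (edgeR adjusted p = 0.00618). The part of other cells in the results was not tested. The targeted gene, Zfp36l2, stood at 3.51, 1.96, 4.17 and 3.44 CPM in floxed mice 1 to 4 and at 2.77, 1.61, 2.56 and 1.06 CPM in knockout mice 1 to 4 (edgeR adjusted p = 0.208). A count over the whole gene does not show whether the floxed part was lost, so it checks no label here.

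The 3′UTRs of the 7 mRNAs were searched on the transcript's own strand for the core, TATTTAT, and for the shorter ATTTA that it contains (DNA letters; GENCODE M21, build mm10, 1 transcript per gene). TATTTAT was in 27.74% and ATTTA in 67.19% of the 13803 tested genes with a 3′UTR of at least 20 bases (median length 1003 bases). Suv39h2 and Prdm2 held TATTTAT once each, in 3′UTRs of 2808 and 2018 bases. Of the 1617 and 1944 tested genes with a 3′UTR within 20% of these lengths, 49.23% and 39.87% held it. The sites are shown because they are the only matches to the core among the 7 genes, with 10 bases on each side in the sense of the mRNA and the core in capitals; the first lies 780 bases and the second 724 bases from the 3′ end.
Suv39h2, chr2:3456585-3456611, minus strand: tcatgttagcTATTTATacagggtatg
Prdm2, chr4:143108105-143108131, minus strand: taaaagcacgTATTTATggaccctgct

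Ehmt1 and Setdb1 held ATTTA without the longer core, 2 times in 2022 bases and 1 time in 548 bases. Their sites follow, with ATTTA in capitals and 11 bases on each side.
Ehmt1, chr2:24791884-24791910, minus strand: tggtgactgcaATTTAgagaggaagaa
Ehmt1, chr2:24791798-24791824, minus strand: ccgaggtgttcATTTAgctggcccagt
Setdb1, chr3:95323551-95323577, minus strand: agtcatgttttATTTAacctttaatat

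Ehmt2, the gene that rose, has a 3′UTR of 231 bases with neither motif. Of the 954 tested genes with a 3′UTR within 20% of that length, 6.81% held TATTTAT and 32.6% held ATTTA. Setdb2 (288 bases) and Suv39h1 (1679 bases) also held neither, and 87.98% of the 1964 genes of a length like that of Suv39h1 held ATTTA. These are matches of letters in 1 annotated transcript, and a missing match says only that these letters are not in it.

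Setdb1 was the most abundant of the 7 mRNAs and Ehmt2 the least, on a scale of CPM per kilobase of annotated exon. In floxed mice Setdb1 stood at 68.5 ± 9.50 CPM per kb, Suv39h1 at 40.4 ± 2.59, Suv39h2 at 30.7 ± 4.08, Prdm2 at 23.9 ± 4.65, Ehmt1 at 18.5 ± 1.75, Setdb2 at 17.1 ± 1.53 and Ehmt2 at 0.686 ± 0.365 (SD, n = 4 mice). Suv39h2 overlapped Prdm2 over the mice, as did Prdm2 with Ehmt1 and Ehmt1 with Setdb2. Setdb1 lay above Suv39h1, Suv39h1 above Suv39h2, and Setdb2 above Ehmt2 in every floxed mouse. In knockout mice the means were 83.3 ± 7.58 CPM per kb for Setdb1, 36.7 ± 3.40 for Suv39h1, 29.0 ± 8.19 for Suv39h2, 27.7 ± 2.31 for Prdm2, 24.2 ± 4.97 for Setdb2, 23.6 ± 3.72 for Ehmt1 and 4.26 ± 0.930 for Ehmt2. Setdb2 and Ehmt1 exchanged places within their overlap, and Ehmt2 stayed last. Of the sum over the 7 mRNAs on this scale, Setdb1 made up 34.2 ± 3.21% in floxed and 36.5 ± 3.90% in knockout mice, and Ehmt2 0.349 ± 0.205% and 1.86 ± 0.370%.

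**Figure D1:**
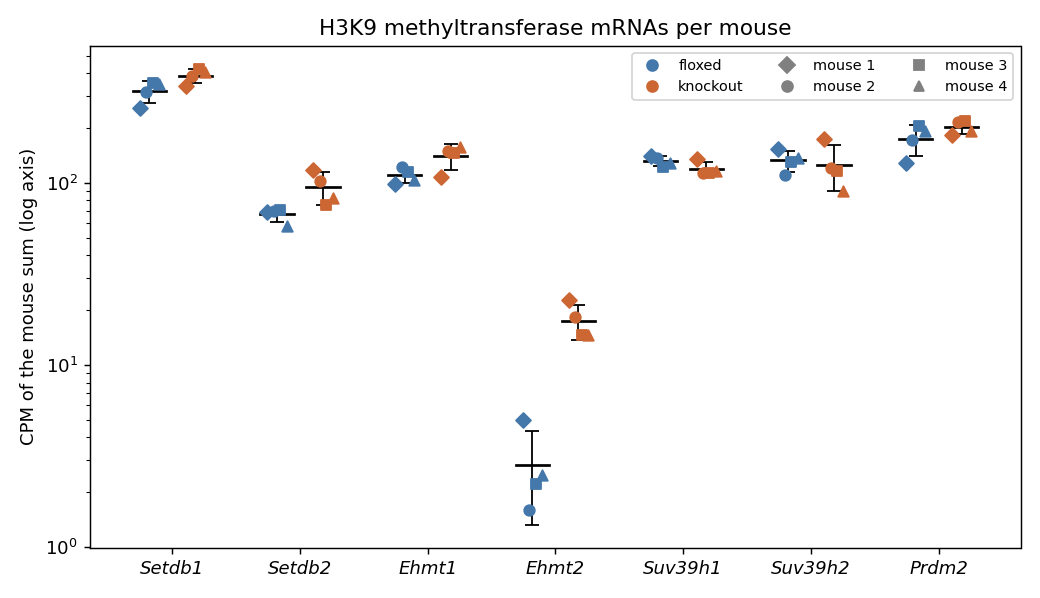
CPM of the mouse sum (log axis) for the 7 methyltransferase mRNAs in 4 floxed and 4 knockout mice; each symbol is a mouse, the horizontal line the mean and the bar ± 1 SD. The knockout mice lie above the floxed mice without overlap for Ehmt2 and Setdb2, and mouse 1 (diamonds) is at the same end of its group in both genotypes for 6 of the 7 genes.

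The genotypes were compared gene by gene with edgeR's quasi-likelihood test on the mouse sums, with p-values adjusted by the Benjamini-Hochberg method over all 15029 genes and called at 0.05. Of the 7 genes, 1 was called higher and 0 lower, where over all genes 27.6% were called, 14.4% higher and 13.2% lower. No gene of the 7 was lower at an unadjusted p under 0.05 or by DESeq2. At an unadjusted p under 0.05, Ehmt1 and Setdb2 joined Ehmt2, also as higher. The share of all genes at that looser threshold was not counted, so no background stands beside it. The median log2 fold change of the 7 was 0.24, and that of all genes tested was -0.006. For 2 of the 7, Ehmt2 and Setdb2, all 4 knockout mice lay above all 4 floxed mice, which held for 16.0% of all genes; the groups did not overlap in either direction for 31.0%. Among the 5443 genes with a floxed mean of 50 to 400 CPM, which takes in the other 6, 26.7% were called and 9.44% were called higher. Counts are relative to each library's total and carry no measure of how much mRNA an oocyte held.

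Ehmt2 (chr17:34898469-34914052, plus strand) encodes G9a, the catalytic partner in the heterodimer that writes H3K9 dimethylation. Its level in floxed mice 1 to 4 was 5.01, 1.59, 2.22 and 2.48 CPM, and in knockout mice 1 to 4 it was 22.6, 18.3, 14.6 and 14.6 CPM. Mouse 1 was the highest of both groups, and the lowest knockout mouse lay above the highest floxed mouse. The log2 fold change was 2.61 (SE 0.38, 95% confidence interval 1.75 to 3.46, edgeR adjusted p = 0.00162). Ehmt2 was called in all 15 alternative analyses, with log2 fold changes of 2.30 to 2.97 and adjusted p-values of 4.09e-11 to 0.00819. Among the 3885 genes with a floxed mean of 1 to 10 CPM, 28.8% were called, 18.4% were called higher and 6.49% were called higher by 4-fold or more. No other annotated gene overlaps Ehmt2 in GENCODE.

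Ehmt1 (chr2:24789928-24919614, minus strand) encodes GLP, the other protein of that heterodimer. It stood at 98.8, 122, 114.5 and 104 CPM in floxed mice 1 to 4 and at 108, 149.5, 146 and 158 CPM in knockout mice 1 to 4. Knockout mice 2, 3 and 4 lay above every floxed mouse, and the single oocyte of knockout mouse 1 lay among them. The log2 fold change was 0.32 (SE 0.13, 95% confidence interval 0.02 to 0.61, edgeR adjusted p = 0.103). Without knockout mouse 1 the gene was called higher, at 0.37 (edgeR adjusted p = 0.0221), and the range of adjusted p over the 15 alternatives was 0.0187 to 0.345.

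The reads of the 2 mRNAs of the heterodimer were less unequal in every knockout mouse than in any floxed mouse. Ehmt1 had 19.6, 75.8, 51.4 and 41.8 reads per Ehmt2 read in floxed mice 1 to 4, and 4.76, 8.16, 10.0 and 10.8 in knockout mice 1 to 4, without overlap of the groups. These are ratios of reads, not of molecules, as the exons of Ehmt1 are longer (5953 against 4115 bases). The mean log2 ratio of Ehmt2 to Ehmt1 was -5.40 ± 0.82 in floxed and -3.01 ± 0.53 in knockout mice, a difference of 2.39 (exact two-sided permutation p = 0.0286, the smallest that 70 arrangements of 8 mice allow; 0.0571 adjusted over the 2 ratios computed, which is also the smallest that 1 ratio alone can reach). This ratio lies within a library and does not depend on its scaling. Leaving out 1 mouse at a time gave differences of 2.11 to 2.76.

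Setdb1 (chr3:95323525-95357202, minus strand), which writes H3K9 trimethylation at retroelements, stood at 258, 316, 354 and 348 CPM in floxed mice 1 to 4 and at 339, 389, 420.2 and 405 CPM in knockout mice 1 to 4. Knockout mice 2, 3 and 4 lay above every floxed mouse. The log2 fold change was 0.24 (SE 0.12, 95% confidence interval -0.02 to 0.51, edgeR adjusted p = 0.158). Mouse 1 was the lowest of its group in both genotypes, and without mouse 1 of both the gene was called higher at a smaller difference, 0.17 (edgeR adjusted p = 0.0446). Without floxed mouse 1 alone it was 0.11 and not called (edgeR adjusted p = 0.367). Its 3′ end shares 75 exonic bases with Cers2 on the opposite strand, including the ATTTA site printed above. Setdb1 also shares 249 exonic bases with Gm37500, a gene model on the opposite strand that has no row in the counts. The library kit keeps no strand, so reads within these bases cannot be told apart. Cers2 itself did not pass the test (log2 fold change 0.19, edgeR adjusted p = 0.294).

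Setdb2 (chr14:59402009-59440884, minus strand) encodes a relative of SETDB1 that also carries a methyl-CpG-binding domain. It stood at 69.2, 69.9, 71.0 and 58.1 CPM in floxed mice 1 to 4 and at 118, 103, 75.5 and 82.1 CPM in knockout mice 1 to 4. The groups did not overlap, but the spread among knockout mice was wide, and the difference of 0.46 on the log2 scale (SE 0.16, 95% confidence interval 0.10 to 0.81) missed the threshold (edgeR adjusted p = 0.0579). DESeq2 called it higher (adjusted p = 0.0367), an analysis that called 33.3% of all genes. So did limma on the mean log2 level of the oocytes (adjusted p = 0.0449), which called 4364 of 15029 genes. Without knockout mouse 1, the highest, the log2 fold change was 0.29 (edgeR adjusted p = 0.141).

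**Figure D2:**
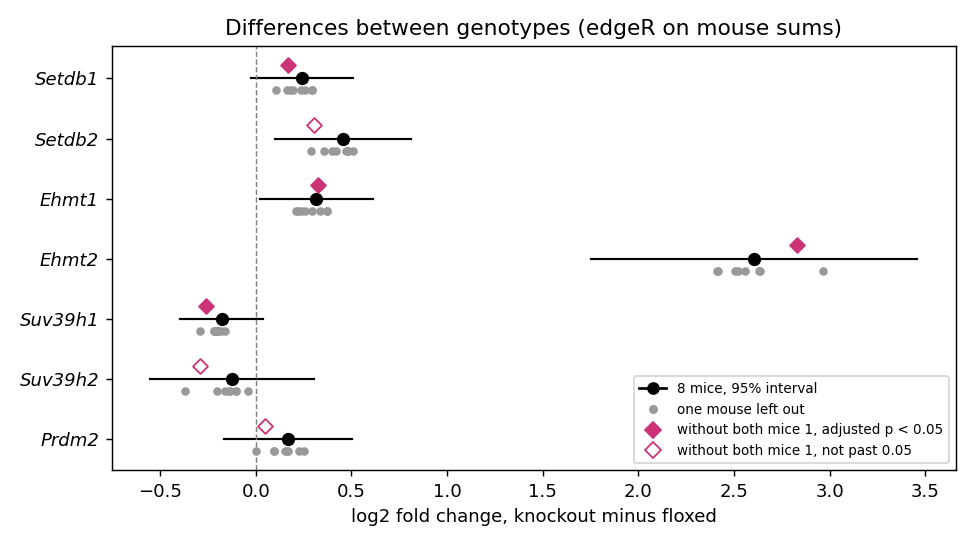
Log2 fold change of each methyltransferase mRNA, knockout minus floxed, from edgeR on mouse sums: black points with 95% intervals use all 8 mice, grey points leave out 1 mouse, and diamonds leave out mouse 1 of both genotypes (filled where the adjusted p is under 0.05). Ehmt2 lies at 2.61 and stays above 2.4 with any 1 mouse left out, while the other 6 genes lie between -0.18 and 0.46.

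Suv39h1 and Suv39h2, the paralogues that write H3K9 trimethylation beside centromeres, showed the only negative log2 fold changes among the 7, and neither passed the test. Suv39h1 (chrX:8061171-8074760, minus strand) stood at 141, 136, 122 and 128 CPM in floxed mice 1 to 4 and at 136, 113, 113 and 117 CPM in knockout mice 1 to 4. Knockout mice 2, 3 and 4 lay below every floxed mouse, whereas the oocyte of knockout mouse 1 lay among them. The log2 fold change was -0.18 (SE 0.10, 95% confidence interval -0.40 to 0.04, edgeR adjusted p = 0.199). Without knockout mouse 1 it was -0.29 and called lower (edgeR adjusted p = 0.0372), and without the 3 shallow oocytes it was -0.12 (edgeR adjusted p = 0.350). Suv39h1 shares 767 exonic bases with the antisense gene Gm14820. The library kit keeps no strand, so reads of both within these bases cannot be told apart.

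Suv39h2 (chr2:3455815-3475031, minus strand) stood at 153, 111, 130.1 and 137 CPM in floxed mice 1 to 4 and at 175, 120.1, 117 and 90.0 CPM in knockout mice 1 to 4. The groups overlapped: knockout mouse 1 was the highest of all 8 and knockout mouse 4 the lowest. The log2 fold change was -0.12 (SE 0.19, 95% confidence interval -0.55 to 0.30, edgeR adjusted p = 0.670), and -0.37 without knockout mouse 1 (edgeR adjusted p = 0.0654). It shares 357 exonic bases with Dclre1c on the opposite strand, which did not pass the test (log2 fold change 0.32, edgeR adjusted p = 0.231). The log2 ratio of Suv39h2 to Suv39h1 reads was 0.00 ± 0.20 in floxed and 0.03 ± 0.30 in knockout mice, a difference of 0.03 (exact two-sided permutation p = 1, n = 4 mice each).

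Prdm2 (chr4:143107391-143212995, minus strand) encodes RIZ1, an H3K9 methyltransferase of the PR-domain family. It stood at 128, 172, 206 and 192 CPM in floxed mice 1 to 4 and at 183, 215, 218 and 192 CPM in knockout mice 1 to 4. Floxed mouse 1 was the lowest and the other mice overlapped between genotypes. The log2 fold change was 0.17 (SE 0.15, 95% confidence interval -0.17 to 0.50, edgeR adjusted p = 0.434), and 0.00 without floxed mouse 1 (edgeR adjusted p = 0.986).

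Mouse 1 had an end position in both genotypes for 6 of the 7 genes. It was the lowest of its group for Ehmt1, Setdb1 and Prdm2 and the highest for Ehmt2, Suv39h1 and Suv39h2. For Setdb2 it was the highest knockout mouse and between the others among floxed mice. Floxed mouse 1 gave 5 oocytes and knockout mouse 1 gave 1. Without mouse 1 of both genotypes (3 mice each), 4 of the 7 genes were called, where 43.9% of all genes were called in that analysis. By log2 fold change, Ehmt1 at 0.32 (edgeR adjusted p = 0.0187), Ehmt2 at 2.83 (adjusted p = 8.65e-05) and Setdb1 at 0.17 were called higher, and Suv39h1 at -0.26 (adjusted p = 0.0369) was called lower. Setdb2 at 0.30 (adjusted p = 0.120), Suv39h2 at -0.29 (adjusted p = 0.0811) and Prdm2 at 0.05 (adjusted p = 0.653) were not called. Without knockout mouse 1 alone, 3 were called (Ehmt1 and Ehmt2 higher, Suv39h1 lower), beside 34.7% of all genes.

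In single oocytes, Ehmt2 ranged from 0 to 7.90 CPM with a median of 2.25 in floxed oocytes and from 1.89 to 36.1 CPM with a median of 15.2 in knockout oocytes. As counts these were 0 to 37 and 11 to 177, so floxed values rest on few reads: 14 of 26 floxed oocytes had under 10. Of the 24 knockout oocytes, 18 lay above the highest floxed oocyte. The other 6 were 1 of 7 oocytes of knockout mouse 2, 1 of 8 of mouse 3 and 4 of 8 of mouse 4. Knockout mouse 4 held both low and high oocytes, with 1.89, 4.52, 5.34 and 7.17 CPM in its lower 4 and 19.3, 21.9, 24.5 and 28.3 CPM in its upper 4. Knockout mouse 2 ranged from 4.80 to 28.2 CPM and knockout mouse 3 from 6.62 to 36.1 CPM.

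**Figure D3:**
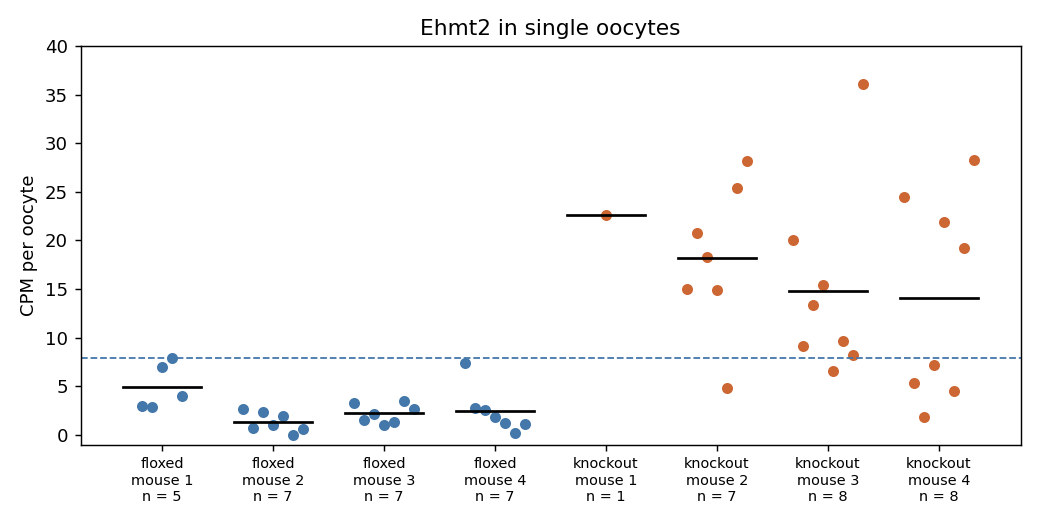
Ehmt2 CPM of each oocyte (points) by mouse, with the mean of the oocytes of a mouse (black line) and the highest floxed oocyte (dashed line, 7.90 CPM). Of 24 knockout oocytes 18 lie above the dashed line, and 4 of the 6 below it are from knockout mouse 4.

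The spread of Ehmt2 among oocytes of a mouse was measured after thinning each oocyte to 3000000 counts, as the SD of log2(CPM + 1). It was 0.639, 0.493, 0.429 and 0.952 in floxed mice 1 to 4 and 0.791, 0.817 and 1.31 in knockout mice 2 to 4. The means were 0.628 ± 0.233 and 0.974 ± 0.295, with an exact two-sided permutation p of 0.143 over 35 arrangements (0.9 adjusted over the 7 genes). A single gene at the smallest p that these mice allow, 0.0286, would have an adjusted p of 0.2, so this test could not have called Ehmt2 alone. At that depth Ehmt2 had a read in 22 of 23 floxed and 24 of 24 knockout oocytes, and the other 6 genes had a read in every oocyte. Their knockout-minus-floxed differences in spread lay between -0.0437 and 0.0812, with adjusted p from 0.9 to 0.914 by the same test. For Ehmt2, the 1 added to CPM narrows this measure most at the low floxed levels. Its SD in percent of the mean CPM, without thinning, was 47.7, 74.2, 43.2 and 95.6% in floxed mice 1 to 4. In knockout mice 2 to 4 it was 42.5, 65.1 and 74.0%. A larger knockout spread was not seen on this scale, which was not tested.

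Setdb1, Ehmt1 and Setdb2 also had higher medians in knockout than in floxed single oocytes. Setdb1 had a median of 336 CPM (230 to 382) in floxed oocytes and 404 CPM (339 to 481) in knockout oocytes. Of 24 knockout oocytes, 17 lay above the highest floxed one, with 14 of 26 floxed oocytes below the lowest knockout one (for Ehmt2, 18 and 11). The 17 were 0 of 1, 4 of 7, 7 of 8 and 6 of 8 oocytes of knockout mice 1 to 4. The lowest knockout oocyte was that of knockout mouse 1, and all 5 of floxed mouse 1 lay below it (at most 287 CPM). These counts pool oocytes that share a mouse, and by mouse Setdb1 did not pass the test (edgeR adjusted p = 0.158). Ehmt1 had medians of 113 CPM (81.1 to 145.5) and 143 CPM (108 to 225.5), with 11 of 24 above. Setdb2 had medians of 68.9 CPM (42.6 to 85.9) and 83.9 CPM (54.7 to 126), with 12 of 24 above, 6 of them from knockout mouse 2. Prdm2 (median 178 and 203 CPM), Suv39h1 (128 and 116 CPM) and Suv39h2 (134 and 111 CPM) each had at most 1 knockout oocyte above all floxed ones.

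Across the 50 oocytes, after subtraction of each mouse's mean of log2(CPM + 1), the 2 mRNAs of the heterodimer had the highest correlation of the 21 pairs, with r = 0.53 for Ehmt1 and Ehmt2. It was 0.51 within the 26 floxed and 0.55 within the 24 knockout oocytes. Suv39h1 had negative correlations with Suv39h2, at -0.51, and with Prdm2, at -0.48. The first was -0.67 in floxed and -0.04 in knockout oocytes, and -0.24 without the 3 shallow oocytes. The second was -0.51 in floxed and -0.43 in knockout oocytes, and -0.43 without the shallow oocytes. Oocytes of a mouse and genes of a library are not independent, so these are descriptions.

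Suv39h1 moved with library depth. Its within-mouse correlation with the log2 total count was -0.80 over 50 oocytes and -0.57 over the 47 oocytes with 3000000 counts or more. The 3 shallow oocytes had 169.9 to 227 CPM of Suv39h1, above the highest knockout oocyte (136 CPM). Prdm2 moved the other way, at 0.56 over all and 0.51 over the 47 deeper oocytes. For Suv39h2 the values were 0.40 and 0.03, for Setdb2 0.32 and 0.04, for Ehmt2 0.25 and 0.14, for Ehmt1 0.25 and 0.30, and for Setdb1 -0.03 and -0.00. The part of depth in the genotype differences was not tested; without the shallow oocytes Ehmt2 stood at 2.54 (edgeR adjusted p = 0.00177).

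**Figure D4:**
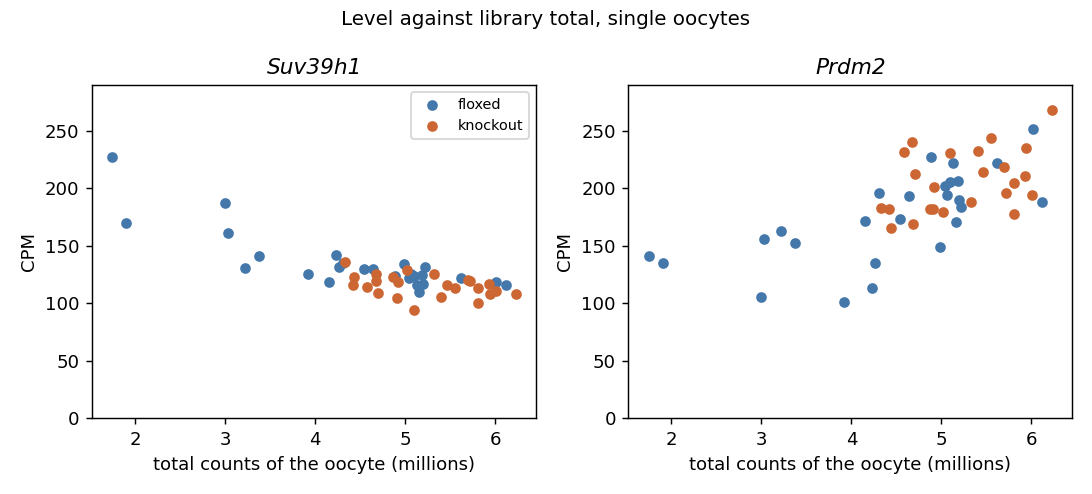
Level of Suv39h1 and Prdm2 (CPM) against the total count of each oocyte (in units of 1000000), blue for floxed and orange for knockout oocytes. Suv39h1 is highest, at 227 CPM, in the shallowest oocyte and lies at 94.4 to 136 CPM in the knockout oocytes, and Prdm2 is higher in deeper oocytes.

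The genes whose level among oocytes was most like that of each methyltransferase were taken from 9114 genes with a mean of at least 10 CPM, by the same within-mouse correlation over 50 oocytes. For Ehmt2 they were Ndrg4 (r = 0.68), Dbnl (0.65) and Zmiz2 (0.63). For Ehmt1 they were Kifc3 (0.66), Abcb9 (0.64) and Phf1 (0.64), and for Setdb1 they were Pan2 (0.65), Dcp1a (0.63) and Dhx38 (0.57). Suv39h2 was most like Mapk8 (0.80), Orc4 (0.79) and Etaa1 (0.78), Setdb2 like Nab1 (0.59), Atp2b1 (0.59) and Mga (0.58), and Prdm2 like Pag1 (0.68), Utp14b (0.65) and Eml4 (0.63). The partners of Suv39h1 were Hspa8, Zp1 and Cpsf4l (0.87 each), and these 3 had correlations of -0.94, -0.91 and -0.94 with depth. The genes most like Suv39h2, Setdb2 and Prdm2 had correlations with depth of 0.44 to 0.56, 0.46 to 0.68 and 0.41 to 0.53. For Ehmt2 these were 0.08 to 0.37, for Ehmt1 -0.07 to 0.09 and for Setdb1 -0.04 to 0.13. The part of depth in these likenesses was not tested.

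Other genes of the pathway were taken from a list of 33 that act with, read or remove H3K9 methylation. This list too was chosen with earlier results of these data known, so its counts are descriptions. All 33 were in the table and 32 were tested; Mecom, with at most 67 counts in a mouse, was not. Of the 32, 9 were called higher and 1 lower, with 14.4% and 13.2% over all genes, and their median log2 fold change was 0.28. The count was 6 when floxed mouse 2, knockout mouse 2 or knockout mouse 3 was left out (5 higher and 1 lower each), where the count over all genes went from 4148 to 2846, 2915 and 3016. It was 17 of 33 (10 higher, 7 lower) without mouse 1 of both genotypes, where 43.9% of all genes were called.

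Of the 9 higher calls most were among the H3K9 demethylases, the enzymes that remove the mark, of which 6 of 11 rose, beside 14.4% of all genes. With all mice none fell by edgeR or DESeq2. Kdm7a alone was lower at an unadjusted p under 0.05, a threshold not counted over all genes. Kdm4a was called lower without floxed mouse 1 and Kdm7a without knockout mouse 1, beside 4749 of 15381 and 5360 of 15454 genes called. Kdm4c, a demethylase of the trimethyl mark, was 7.12-fold higher in knockout oocytes, at 8.52 ± 4.68 against 1.17 ± 0.377 CPM (4 mice per genotype, edgeR adjusted p = 0.0026). Its relative Kdm4b rose 3.54-fold, from 6.91 ± 1.11 to 25.2 ± 10.1 CPM (edgeR adjusted p = 0.0032). Kdm3a, which removes the mono- and dimethyl marks that EHMT1 and EHMT2 write, rose 2.30-fold, from 11.7 ± 3.56 to 27.7 ± 3.04 CPM, and Phf2 from 18.7 ± 4.78 to 51.3 ± 9.39 CPM. Kdm3b rose 1.74-fold, from 21.6 to 38.5 CPM, and Jmjd1c, of the same family, 1.5-fold, from 43.3 to 66.9 CPM. Kdm3b lost its call without floxed mouse 2, knockout mouse 2 or knockout mouse 3, and Jmjd1c lost it without any of these, floxed mouse 1 or floxed mouse 4. Kdm3a, Kdm4b, Kdm4c and Phf2 were called in all 15 alternatives. Without mouse 1 of both genotypes 6 were called higher and 3 lower (Kdm1a, Kdm4a and Kdm7a), beside 43.9% of all genes called. The list was described by its counts and was not tested against other genes. It was chosen with earlier results of these data known, so its share beside that of all genes is only a description.

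Among 7 proteins that bind methylated H3K9, 2 rose, where 14.4% of all genes were called higher by edgeR. None fell by edgeR, by DESeq2 or at an unadjusted p under 0.05. Cdyl, a chromodomain protein, rose 1.79-fold from 100.3 ± 14 to 184 ± 8.68 CPM (edgeR adjusted p = 0.00119), in all 15 alternatives. Cdyl2 rose 2.06-fold from 25.2 ± 6.04 to 53.0 ± 17.4 CPM and lost its call without floxed mouse 2, floxed mouse 4, knockout mouse 2 or knockout mouse 3. The genes of the HP1 proteins, the classical readers of the trimethyl mark, did not pass with all mice: Cbx1 had means of 66.7 and 74.1 CPM in floxed and knockout mice, Cbx3 8.53 and 13.3 CPM, and Cbx5 99.7 and 129 CPM. Cbx5 was called higher in 2 of 15 alternatives, without knockout mouse 1 and without mouse 1 of both genotypes, which brought the readers called to 3 of 7, beside 34.7% and 43.9% of all genes. Uhrf1, which links the mark to DNA methylation, stood at 379.7 ± 45.1 and 424 ± 17.0 CPM (edgeR adjusted p = 0.367).

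None of the 2 EHMT partners and none of the 8 SETDB1 partners was called in either direction by edgeR without a replicate block on all 8 mice, or by DESeq2. At an unadjusted p under 0.05 the counts were 0 of 2 and 1 of 8, without a count over all genes beside them. The 1 was Fam208a (log2 fold change 0.45), a subunit of the HUSH silencing complex, named after its value was seen. Fam208a was the 1 SETDB1 partner called higher with a replicate block. Chaf1a was called lower without knockout mouse 1, Atf7ip2 without floxed mouse 1, and both without mouse 1 of both genotypes. Trim28, which recruits SETDB1, stood at 153 ± 18.4 and 186 ± 35.2 CPM (edgeR adjusted p = 0.240). Of the 3 H4K20 methyltransferases, enzymes whose mark is in part laid down after H3K9 trimethylation, Suv420h1 rose 1.97-fold from 10.7 ± 3.45 to 21.7 ± 6.50 CPM, a call lost when any mouse other than floxed mouse 1 was left out. Prdm16, a relative of Prdm2, was the 1 gene of the list that fell by edgeR with all mice, 2.39-fold, from 42.8 ± 1.79 to 18.7 ± 8.75 CPM (edgeR adjusted p = 0.0138). Mecom, another relative, was left out by the filter on low counts with all mice. It was called lower by DESeq2, by edgeR without the filter, and without floxed mouse 1, knockout mouse 1 or both. Without knockout mouse 2, 3 or 4 it was tested and not called.

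**Figure D5:**
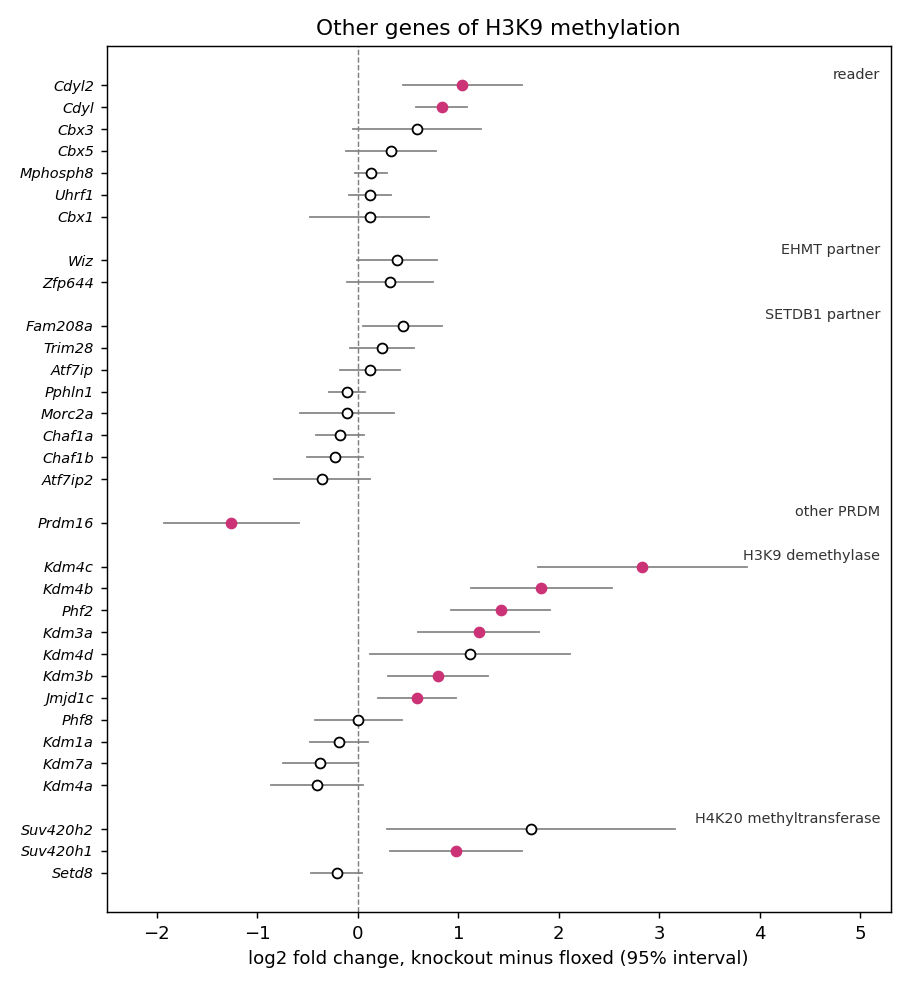
Log2 fold change, knockout minus floxed, with 95% intervals from edgeR on 8 mice for the 32 tested genes of the pathway, by role; filled points have an adjusted p under 0.05. Filled points lie to the right of 0 for 6 demethylases, 2 readers and Suv420h1, and to the left for Prdm16.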

How the data were processed

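RNA of single oocytes was made into cDNA with the SMARTer Ultra Low Input kit, per the labels' protocols; it uses no molecular identifiers and keeps no strand. For each of 50 oocytes the deposited table holds raw counts per gene, and the submitters' processing notes name STAR and mm10. No source used here gives the counting tool, its settings or how duplicates and multi-mapped reads were treated. All columns matched a labelled oocyte (0 columns without a sample). Oocytes of a mouse were not copies of each other: over 150 pairs the chi-square per degree of freedom was 5.39 to 28.2.

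Counts were summed per mouse and compared, 4 floxed against 4 knockout, with edgeR 4.0.16 in R 4.3.3 (TMM scaling, filterByExpr with a minimum count of 10, robust quasi-likelihood fit, no covariates, Benjamini-Hochberg over all tested genes, threshold 0.05). The biological coefficient of variation was 35.4%. Errors are SDs over mice, and intervals are 95%. Ratios of 2 genes (0.5 counts added) and spreads were tested by exact permutation over mice. The alternatives were DESeq2 1.42.0, limma 3.58.1, DESeq2's size factors, no filter, a replicate block, omission of shallow oocytes and of single mice. The edgeR fit was tested on data simulated at a biological coefficient of variation of 0.35. The permutation test was checked on a small set of made-up values, and DESeq2 and limma were not simulated. Rows were joined to GENCODE M21 by RefSeq accession (16350) or symbol (30, Setdb2 among them), and 234 stayed unmatched. The 7 genes and the lists were chosen with earlier results of these data known. All 7 are named, with the pathway genes called or central to it, and for each the 3 genes most like it.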

Additional observations from a re-analysis of the deposited data

Results flagged for a closer look

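Samples far from the rest of their group were sought by Dixon's test in 44 groups of 4 mice and in 49 groups of oocytes of a mouse, which found 5 and 6; chance alone gives about 1 in 20 groups. Among mice, Setdb2 stood at 58.1 CPM in floxed mouse 4, with the other floxed mice at 69.2 to 71.0 CPM. Suv39h1 stood at 136 CPM in knockout mouse 1, a single oocyte, with the others at 113 to 117 CPM. Kdm4b stood at 8.56 CPM in floxed mouse 1 (others 6.25 to 6.49). Uhrf1 stood at 447 CPM in floxed mouse 2 (others 351 to 364) and at 449 CPM in knockout mouse 1 (others 413 to 418).

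Among oocytes, Ehmt2 stood at 7.42 CPM in oocyte 1 of floxed mouse 4, with the other 6 at 0.216 to 2.80 CPM. It stood at 36.1 CPM in oocyte 8 of knockout mouse 3, with the other 7 at 6.62 to 20 CPM. Ehmt1 stood at 142 CPM in oocyte 3 of floxed mouse 2 (others 116 to 125). Suv39h1 stood at 187 CPM in oocyte 5 of floxed mouse 1 (others 125 to 142), an oocyte of under 3000000 counts. Suv39h2 stood at 143 CPM in oocyte 7 of knockout mouse 3 (others 108 to 122), and Prdm2 at 222 CPM in oocyte 5 of floxed mouse 2 (others 135 to 172).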

How the results depend on the processing

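Ehmt2 kept its direction and its call in all 15 alternatives, and the direction of the other 6 log2 fold changes held in all 15. Of the 7 genes 1 was called, and leaving out 1 mouse called 1 to 3. DESeq2 and limma called 2 each (Setdb2 added), beside 5526 of 16607 and 4364 of 15029 genes in all. Leaving out mouse 1 of both genotypes called 4 of the 7, 17 pathway genes (10 with all mice) and 6731 genes in all (4148 with all mice). Leaving out 1 mouse gave 6 to 13 pathway genes and 2728 to 5360 genes in all. A replicate block on the mouse number called 4, all higher (Ehmt1, Ehmt2, Setdb1 and Setdb2), and 5823 genes in all. Mice of 1 number correlated at 0.317, -0.003, 0.248 and 0.181 in their deviations from the group means. Mice of unlike number correlated at -0.2874 to 0.1925, and the same number gave the highest value for knockout mice 1, 3 and 4. The labels do not say that mice of 1 number are pairs, so the main test did not pair them. Whether they share a source of variation was not tested. The difference in the log2 ratio of Suv39h2 to Suv39h1, 0.03, was -0.0744 without floxed mouse 2 and -0.0831 without knockout mouse 1 (range -0.0831 to 0.162). That of Ehmt2 to Ehmt1 ranged from 2.11 to 2.76. Differences in spread turned sign for Setdb1 without thinning (0.00215), for Suv39h1 (-0.0649 at 1700000 counts, -0.0724 without thinning) and for Suv39h2 (-0.0104 and -0.0395). The cause was not tested. Depth limits Ehmt2 in floxed oocytes, where 14 of 26 had under 10 counts.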
